A study of Chlorocebus sabaeus with 4 samples.

Results

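Aromatase (CYP19A1), the enzyme that turns androgens into estrogens, was followed in the corpus luteum together with 2 estrogen-making hydroxysteroid dehydrogenases, HSD17B1 and HSD17B7, and with 4 transcription factors of steroid-making cells, NR5A1, NR5A2, NR0B1 and FOXL2. Members were all probe sets whose platform annotation gave 1 symbol and that symbol was one of these 7 genes. This found 16 probe sets for 6 of the 7 genes, among 19775 genes named in all, and 7 of the 16 belonged to CYP19A1. NR0B1, a repressor of NR5A proteins, had no probe set under its symbol in the annotation used here and was not analysed here. All 7 genes were present by symbol in the RefSeq annotation of the vervet genome, while the arrays were designed on human genes. No coordinates are given, because no genome build belongs to the arrays.

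The samples were total RNA of frozen corpus luteum, the progesterone-making gland that forms from the ovulated follicle, from 2 adult female vervet monkeys of 16 years. Monkey 1030 ate ad libitum and monkey 1031 was on calorie restriction, no other agent or allele was named, and the animals were their own controls for a change in weight. Each animal gave 2 samples, numbered 1 and 2, with 1 array each, and the labels used here do not say which number came first. With 1 animal per diet, diet and animal cannot be told apart, and within an animal a change (sample 2 minus sample 1) has no replicate and no p-value. Values are log2 signals, so a change of 1 is 2-fold, and 2-fold is used below as a rule of size.

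Ovarian estrogen is made in steps: androgens from theca-type cells enter granulosa or luteal cells, where aromatase makes estrone or estradiol and HSD17B enzymes reduce estrone to the more active estradiol. NR5A1 (steroidogenic factor 1) and NR5A2 (liver receptor homolog 1) are closely related nuclear receptors that bind the same kind of DNA site, found in the ovarian CYP19A1 promoter and in other steroidogenic genes, and NR0B1 binds and represses them. In the primate ovary NR5A2 is known from granulosa and luteal cells and NR5A1 also from theca cells. FOXL2 maintains granulosa cell identity. The primate corpus luteum, unlike that of many mammals, makes estrogen as well as progesterone.

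Sample 2 of the ad libitum animal differed most from the other 3 arrays: 1840 to 2051 of 27307 probe sets past the level filter (mean log2 signal at or above 3.99, the median) were 2-fold away in each pairing with it, against 242 to 684 among the other 3. Median signal was 3.96 to 4.00 in every array, and the 3' minus 5' difference, a measure of RNA integrity, was 1.15 in that sample and 1.29 to 1.41 in the others for GAPDH, and 1.65 against 1.48 to 1.73 for ACTB. The bacterial hybridisation controls averaged 9.85 in that sample, and 10.6, 10.1 and 10.5 in the ad libitum sample 1 and the calorie restriction samples 1 and 2. Markers of luteal steroid-making cells had a list mean over 8 genes of 11.5 and 8.11 in ad libitum samples 1 and 2 and of 9.66 and 10.6 in the calorie restriction samples. In the ad libitum sample 2 the 8 genes read from 5.68 (HSD11B1) to 10.8 (FDX1). Whether each lay above background was not tested. All 8 were 2-fold lower in the ad libitum sample 2, against 5.39% of all genes past the level filter by their brightest probe sets. In the calorie restriction sample 2, 4 of 8 were 2-fold higher, against 0.494% of all. The list was chosen with earlier results of these data known. In whole tissue, fewer cells of a type and less RNA per cell cannot be told apart.

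Aromatase signal was high in 3 samples and low in 1. The brightest CYP19A1 probe set, 203475_at, designed on the reference mRNA, read 10.4 in the ad libitum sample 1, 4.41 in the ad libitum sample 2, and 10.002 and 9.92 in the calorie restriction samples 1 and 2. The 3 high samples lay within 0.46 of each other on the log2 scale, and the ad libitum sample 2 lay 5.50 below the lowest of them. The change within the ad libitum animal was -5.96, or 62.4-fold lower, and 5 of all 27307 probe sets past the level filter, itself included, had a decrease of that size or more. In the calorie restriction animal the change was -0.08, a fold of 1.06. The low value lay at the 56.8th percentile of its array, near the middle of the signal distribution. Whether it lay above background was not tested, so the size of the fold is unsure.

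The other 6 CYP19A1 probe sets differed from it in level and in size of change. The probe set 1554296_at, designed on a full-length cDNA clone, read 5.66, 2.01, 3.25 and 2.41 in ad libitum samples 1 and 2 and calorie restriction samples 1 and 2. It was 12.5-fold lower in the ad libitum sample 2 (change -3.65), the same direction as 203475_at, and its calorie restriction change was -0.85. With a mean of 3.33 it lay below the level filter, and its low readings fell under the 25th percentile of the arrays (2.75 to 2.79), where the size of a change is unsure. It also separated the calorie restriction samples from the ad libitum sample 1, by 2.83 against their mean, where 203475_at had a gap of 0.42.

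No other CYP19A1 probe set was 2-fold apart in either animal. The probe set 240705_at, designed on an expressed sequence tag, passed the level filter and read 4.63, 4.76, 4.98 and 5.09 in the same order, with an ad libitum change of 0.13 and a calorie restriction change of 0.12. The remaining 4, also designed on sequence tags, were dim in all 4 samples: 1560295_at read 2.74 to 2.95, 239460_at 2.25 to 2.51, 240863_at 1.97 to 2.47 and 239459_s_at 1.95 to 2.16. Their changes lay between -0.33 and 0.07 in the ad libitum animal and between -0.27 and 0.26 in the other. Where these tags lie in the gene was not analysed here. Averaged over all 7 probe sets the changes came to -1.43 and -0.11, so the size of the aromatase change depends on which probe sets are read.

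**Figure D1:**
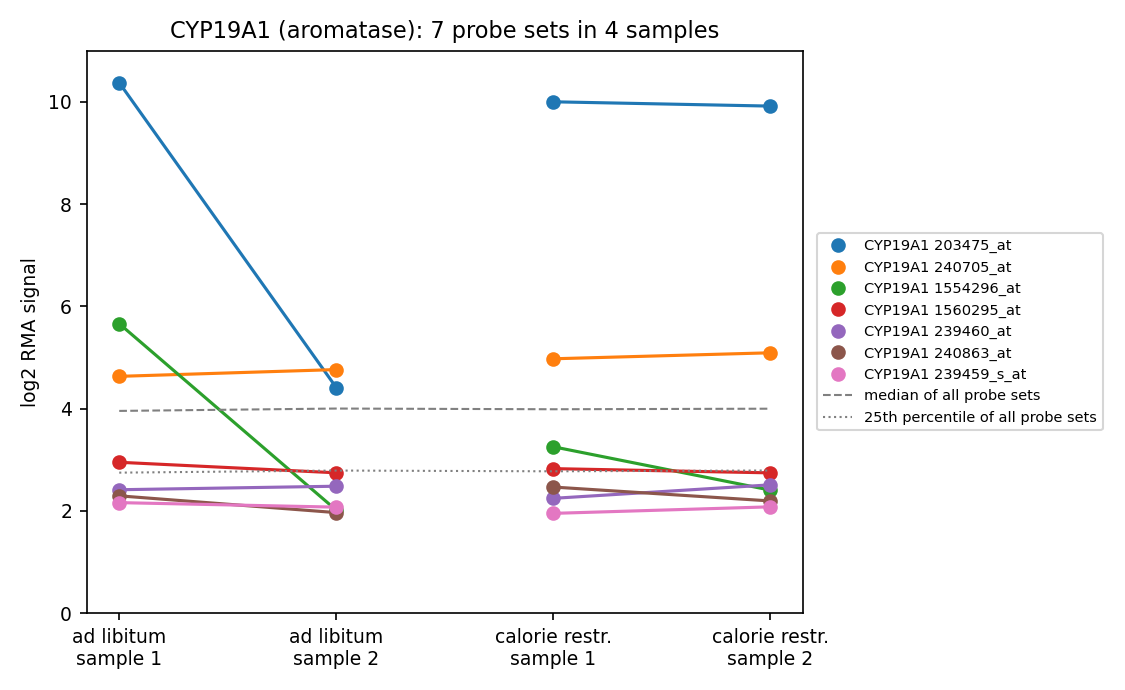
Log2 RMA signal (vertical axis) of the 7 CYP19A1 probe sets in the 4 samples (horizontal axis), 1 point per array, lines joining the samples of an animal, with the median and 25th percentile of all probe sets in grey. The probe set 203475_at is at 9.92 to 10.4 in 3 samples and at 4.41 in the ad libitum sample 2, 1554296_at also falls there, and the other 5 are nearly flat.

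The dehydrogenases that act beside aromatase moved less. HSD17B1, which reduces estrone to estradiol, read 4.18 and 5.17 in ad libitum samples 1 and 2 and 4.81 and 4.31 in calorie restriction samples 1 and 2 by its brighter probe set, 205829_at. The ad libitum sample 2 was the highest of the 4, opposite to aromatase. Its change of 0.99 in the ad libitum animal (1.98-fold) was just under the 2-fold rule, and that in the calorie restriction animal was -0.50. The second HSD17B1 probe set, 228595_at, below the level filter, read 3.56, 3.54, 3.95 and 3.46, with changes of -0.02 and -0.49. The 2 probe sets thus had alike decreases in the calorie restriction animal and did not share the increase in the ad libitum animal.

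HSD17B7, which reduces estrone and also acts in cholesterol synthesis, read 8.97, 8.07, 8.06 and 8.31 in ad libitum samples 1 and 2 and calorie restriction samples 1 and 2. The ad libitum sample 1 was the high one here, and its sample 2 lay within the range of the calorie restriction samples. The changes were -0.90 (1.87-fold lower) and 0.24. Its only probe set, 220081_x_at, is of a kind whose probes can match other sequences, and the probe set of the related pseudogene HSD17B7P2 read 2.21 to 2.40 in all samples.

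Of the NR5A pair, NR5A2 had the larger differences. Its brightest probe set, 208343_s_at, read 8.38 and 5.30 in ad libitum samples 1 and 2, and 7.44 and 7.60 in calorie restriction samples 1 and 2. The ad libitum sample 2 was lowest and sample 1 of the same animal highest, with the calorie restriction samples 0.16 apart between them. The ad libitum change was -3.07 (8.42-fold lower), and 66 probe sets of 27307 had a decrease of that size or more.

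The other 3 NR5A2 probe sets had the same order of samples at the ends. The probe set 210174_at read 7.78, 5.81, 7.06 and 7.28 (ad libitum change -1.97, calorie restriction change 0.22). The probe set 208337_s_at read 5.27, 3.78, 4.71 and 4.74 (changes -1.50 and 0.02), and 1560469_at read 5.08, 4.35, 4.92 and 4.82 (changes -0.73 and -0.11). All 4 were thus lower in the ad libitum sample 2 than in every other sample, 3 of them 2-fold lower than its sample 1, and in the calorie restriction animal none moved by more than 0.22. Of all probe sets past the level filter, 33.6% were lowest in the ad libitum sample 2 and 4.98% were 2-fold lower there. The 4 probe sets read 1 gene and are not counted as independent. The mean change over the 4 probe sets was -1.82 in monkey 1030 (ad libitum) and 0.07 in monkey 1031 (calorie restriction). Unlike the CYP19A1 probe sets, all 4 passed the level filter, which uses the mean of the 4 samples. In the ad libitum sample 2 itself, 208337_s_at read 3.78, under the filter level of 3.99 and at the 45.9th percentile of that array. The size of its change is therefore unsure.

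NR5A1 had 1 probe set, 210333_at, with signals near the middle of the arrays. It read 4.67 and 4.02 in ad libitum samples 1 and 2 and 4.23 and 4.22 in calorie restriction samples 1 and 2. Its highest and its lowest sample were those of NR5A2, with a change of -0.66 (1.57-fold lower) in the ad libitum animal and of -0.01 in the other. At 4.02 the lowest reading was almost at the array median of 4.00, and NR5A1 was the member probe set nearest above the level filter, with a mean of 4.28.

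FOXL2, read by 220102_at, was bright in all samples. Its signal was 8.71 and 8.38 in ad libitum samples 1 and 2, and 8.95 and 9.27 in calorie restriction samples 1 and 2. Both calorie restriction samples were above both ad libitum samples. The changes were -0.32 and 0.32, a fold of 1.25 in each animal and opposite in direction.

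**Figure D2:**
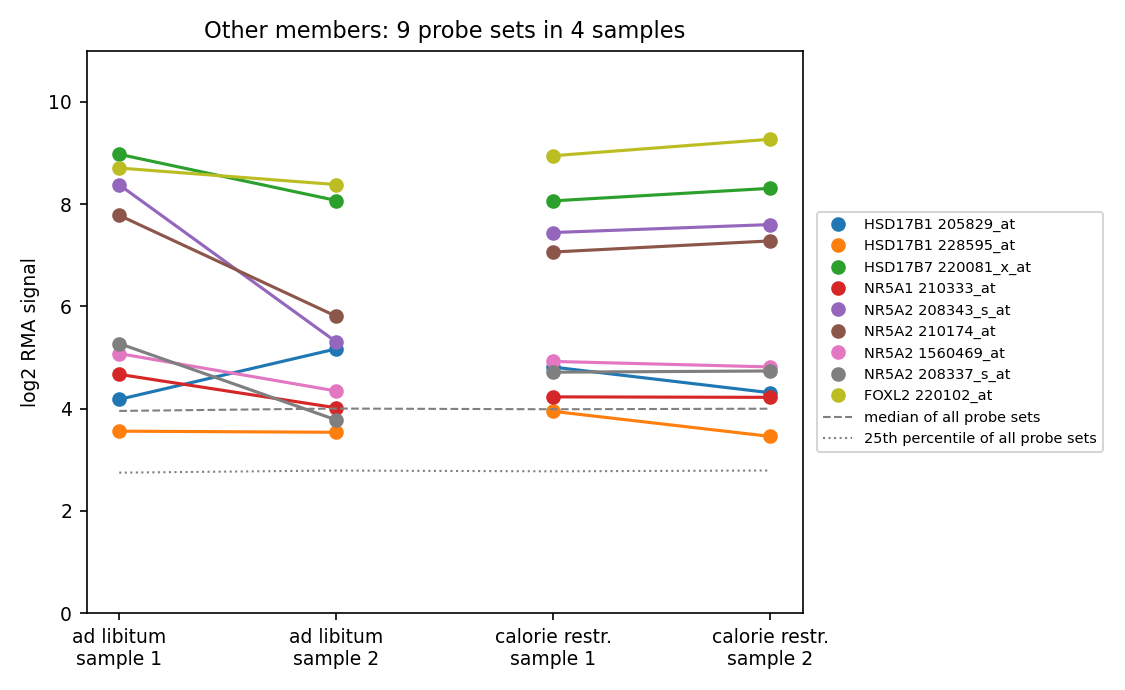
Log2 RMA signal (vertical axis) of the 9 probe sets of HSD17B1, HSD17B7, NR5A1, NR5A2 and FOXL2 in the 4 samples (horizontal axis), 1 point per array, lines joining the samples of an animal, array median and 25th percentile in grey. The 4 NR5A2 probe sets are lowest in the ad libitum sample 2, HSD17B1 205829_at is highest there (5.17), and FOXL2 stays between 8.38 and 9.27.

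Past the level filter were 10 of the 16 member probe sets, from 5 genes besides CYP19A1. In the ad libitum animal 4 of these 10 were 2-fold lower in sample 2 (203475_at of CYP19A1 and 3 of NR5A2), where 4.98% of all probe sets past the filter were, and 0 were 2-fold higher, where 2.07% were. In the calorie restriction animal 0 of 10 were 2-fold apart, where 0.546% of all were 2-fold lower and 0.341% higher. The median change of the 10 was -0.82 in monkey 1030 (ad libitum) and 0.07 in monkey 1031 (calorie restriction), beside 0.01 and -0.01 over all probe sets. The 4 probe sets of NR5A2 and the 2 of CYP19A1 among the 10 share a gene and are not counted as independent. Of the 3 of NR5A2 that were 2-fold lower, 208337_s_at passed the filter by its mean and read 3.78 in that sample 2. The ad libitum sample 2 was the lowest of the 4 samples for 7 of 10, against 33.6% of all probe sets, and 5 of 10 had a negative ad libitum and a positive calorie restriction change, against 25.1%.

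**Figure D3:**
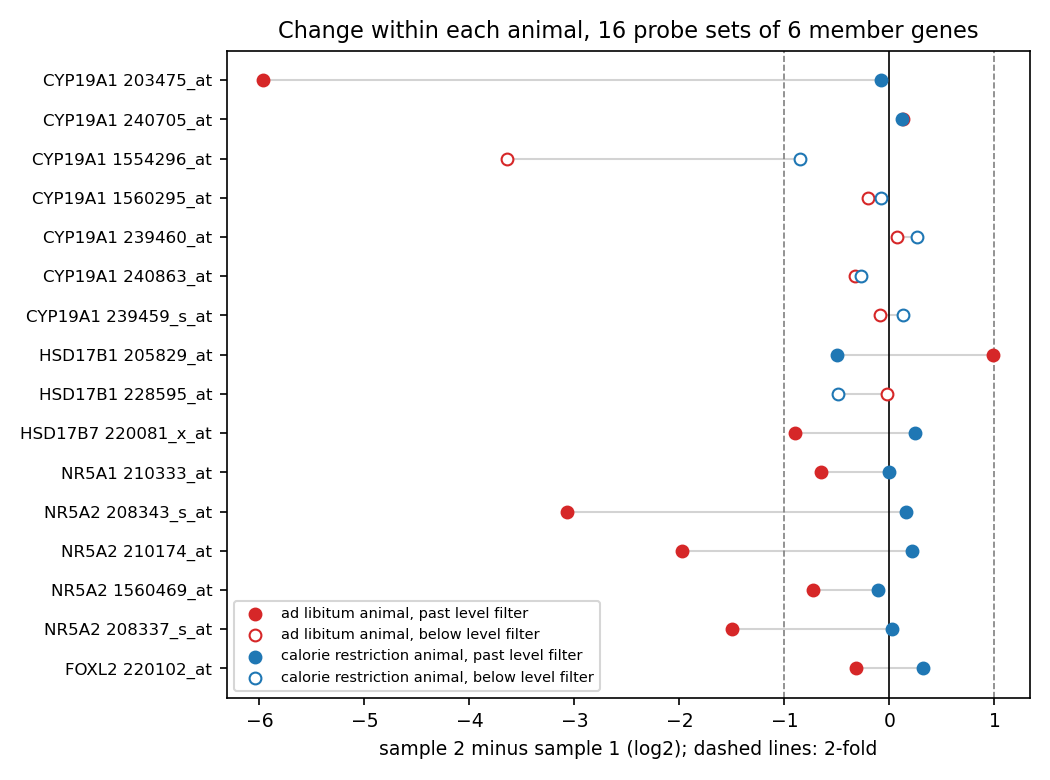
Change within each animal, sample 2 minus sample 1 on the log2 scale (horizontal axis), for the 16 member probe sets (vertical axis), with 1 value per animal, filled points past the level filter and open points below it. In the ad libitum animal (red) values reach -5.96 for CYP19A1 and -3.07 for NR5A2, while those of the calorie restriction animal (blue) lie between -0.85 and 0.32.

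The difference between the animals was tested on 2 samples against 2 with limma over all 27307 probe sets. No member probe set was called at a Benjamini-Hochberg adjusted p of 0.05, and 0 of all probe sets were (0% of them), while 1428 had an unadjusted p under 0.05, none of them a member. CYP19A1 203475_at averaged 7.39 ± 4.22 (SD, n = 2) in the ad libitum and 9.96 ± 0.06 (SD, n = 2) in the calorie restriction animal, a difference of 2.57 with a standard error of 1.87 and a limma adjusted p of 0.927. NR5A2 208343_s_at averaged 6.84 ± 2.17 and 7.52 ± 0.11 (SD, n = 2 each), a difference of 0.68 with a standard error of 0.98 and a limma adjusted p of 0.956. FOXL2 averaged 8.54 ± 0.23 and 9.11 ± 0.23 (SD, n = 2 each), a difference of 0.56 with a standard error of 0.24 and a limma adjusted p of 0.927. For CYP19A1 and NR5A2 the spread between the samples of the ad libitum animal was larger than the difference between the animals. The animals did not overlap for FOXL2 and for CYP19A1 240705_at, 2 of 10 member probe sets, against 35% of all, and these p-values measure only the spread between samples of these 2 animals.

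Which ad libitum sample is compared decides the sign for CYP19A1 203475_at and the NR5A2 probe sets, and also for HSD17B1 205829_at, HSD17B7 and NR5A1. By contrast, CYP19A1 240705_at was higher in the calorie restriction animal in both fits, by 0.27 and 0.40. Without its sample 1, the calorie restriction samples were 5.55 higher than the remaining ad libitum sample for CYP19A1 203475_at (limma adjusted p 0.00313) and 2.22 higher for NR5A2 208343_s_at (limma adjusted p 0.0104). NR5A2 210174_at and 208337_s_at, with differences of 1.37 and 0.95, were called as well, so that 4 of 10 member probe sets were called, where 4.19% of all were. In this fit the lone sample is assumed to vary like the other animal's pair. Without the ad libitum sample 2, the same probe sets were 0.42 and 0.86 lower in the calorie restriction animal (limma adjusted p 0.651 and 0.363), 0 of 10 were called, and 0.0256% of all probe sets were. FOXL2 was higher in the calorie restriction animal in both fits, by 0.73 and 0.40 (limma adjusted p 0.154 and 0.723).

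A change common to both animals and a change opposed between them were each fitted with limma, blocked on the animal, which leaves 1 residual degree of freedom. No member and no other probe set was called in either fit (0% of 27307 in each). At an unadjusted p under 0.05, 751 of 27307 probe sets passed for a common and 1543 of 27307 for an opposed change. Among the 10 member probe sets 0 and 1 did. That 1 was HSD17B1 205829_at, whose opposed change, taken as the mean of the calorie restriction change and the ad libitum change with its sign turned, was -0.74 with a standard error of 0.20 and a limma adjusted p of 0.855. The other HSD17B1 probe set, 228595_at, below the level filter, changed by -0.02 and -0.49 and was not opposed. For CYP19A1 203475_at the common change was -3.02 with a standard error of 1.35, and for NR5A2 208343_s_at -1.46 with a standard error of 0.77, both with a limma adjusted p of 1.

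Genes around aromatase were then counted from lists by each gene's brightest probe set. Of all 13574 genes past the level filter, 5.39% were 2-fold lower and 2.48% higher in the ad libitum sample 2, and 0.626% lower and 0.494% higher in the calorie restriction sample 2. The list of androgen and progesterone synthesis had 9 genes past the filter, SRD5A1 (-0.11 and -0.01) among them. Of these 9, 4 were 2-fold lower and 1 higher in the ad libitum animal, and 1 was lower and 2 higher in the other. The medians were -0.42 and 0.20, beside 0.01 and -0.01 for all genes. STAR, which carries cholesterol into mitochondria, changed by -3.49 and 1.03, the side-chain cleavage enzyme CYP11A1 by -2.19 and 0.77, its electron donor FDX1 by -2.25 and 0.59, and HSD3B2, which makes progesterone, by -3.91 and 1.36. CYP17A1, the theca enzyme of androgen synthesis, had the opposite signs, 1.19 and -3.26. Thus in the ad libitum animal the signal of the androgen-making enzyme was higher where that of aromatase was lower, and in the calorie restriction animal it was 9.57-fold lower while aromatase changed by -0.08.

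Other enzymes of estrogen metabolism were counted next. Of 9 past the filter, 0 were 2-fold apart in either animal, with medians of -0.32 and 0.28. CYP1B1, an estrogen hydroxylase, had the largest ad libitum change among them, 0.97, and HSD17B12 changed by -0.75 and 0.35. HSD17B6, an enzyme of androgen and estrogen oxidation with a mean of 3.95, just below the filter, read 2.59, 4.86, 4.63 and 3.71 in ad libitum samples 1 and 2 and calorie restriction samples 1 and 2, changes of 2.27 and -0.92. HSD17B2 and SULT1E1, which inactivate estradiol, were below the filter, at 2.19 to 2.66 and 2.14 to 2.36 in all samples.

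Among 7 estrogen receptor and related genes past the filter, 1 was 2-fold higher in the ad libitum animal and 0 were 2-fold apart in the other, with medians of 0.36 and 0.16. The 1 was ESR1, estrogen receptor alpha, which read 8.01, 9.03, 8.03 and 7.47, with changes of 1.02 and -0.57. ESR2, the beta receptor of granulosa cells, changed by 0.42 and 0.25, and the estrogen-responsive gene GREB1 by -0.76 and 0.16.

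Genes known as NR5A targets held the largest decreases of the 6 lists. Of 14 past the filter, 8 were 2-fold lower and 2 higher in the ad libitum animal, and 2 were lower and 4 higher in the calorie restriction animal, with medians of -2.15 and 0.36. The 8 were STAR, CYP11A1, HSD3B2, the HDL receptor SCARB1 (-3.68), the inhibin subunit INHA (-5.32), the luteinising hormone receptor LHCGR (-2.10), the melanocortin receptor accessory protein MRAP (-4.75) and ALDH1A2, a retinoic acid synthesis enzyme (-2.42). All of these but ALDH1A2 (-1.19) had a positive calorie restriction change, of 0.47 to 1.36, and ALDH1A2 and CYP17A1 were the 2 lower there. FSHR, the follicle stimulating hormone receptor (1.25), and CYP17A1 were the 2 higher in the ad libitum animal. NR0B2, a repressor related to NR0B1 and itself an NR5A target, read 6.11, 5.52, 5.94 and 5.61, with changes of -0.59 and -0.33. Luteal marker genes are among this list, so its count and the marker count above are not separate observations. By their brightest probe sets, NR5A2 and CYP19A1 changed by 0.16 and -0.08 in the calorie restriction animal. The target list went both ways there, from -3.26 (CYP17A1) to 1.36 (HSD3B2). Within that range INHA changed by 1.10, MRAP by 1.25, PRLR by 0.01 and ALAS1 by -0.55. Whether any of these changes exceeds the error could not be tested with 1 sample each.

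Cofactors and partners of NR5A proteins went both ways in the ad libitum animal. Of 16 past the filter, 2 were 2-fold lower and 1 higher in the ad libitum animal and 0 were 2-fold apart in the other, with medians of 0.01 and -0.28. GATA6, which acts on steroidogenic promoters, changed by -1.01 and -0.23, and its relative GATA4 by 0.59 and -0.41. CITED2, a coactivator, changed by -1.12 and 0.20, and NRIP1, a corepressor of nuclear receptors, by 1.07 and 0.14.

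Of 21 ovarian regulators of aromatase, all past the filter, 6 were 2-fold lower and 2 higher in the ad libitum animal, and 1 was lower and 0 higher in the calorie restriction animal, with medians of -0.0037 and -0.23. INHBA, the activin beta A subunit (-3.42), and RUNX2 (-3.27) had the largest decreases, followed by LHCGR, the transcription factors CEBPB (-2.06) and NR4A2 (-1.79), and GATA6. NR4A2 was also the 1 lower in the calorie restriction animal (-1.62), and NR4A1 (-0.998 and -0.66) lay at the 2-fold border of the ad libitum animal without passing it. CEBPA (1.48 and -0.57) and FSHR were the 2 higher. The insulin signalling genes in the list, INSR (-0.02 and -0.24), IGF1R (0.09 and -0.08), IRS1 (0.50 and -0.34) and IRS2 (0.68 and -0.63), were not 2-fold apart.

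**Figure D4:**
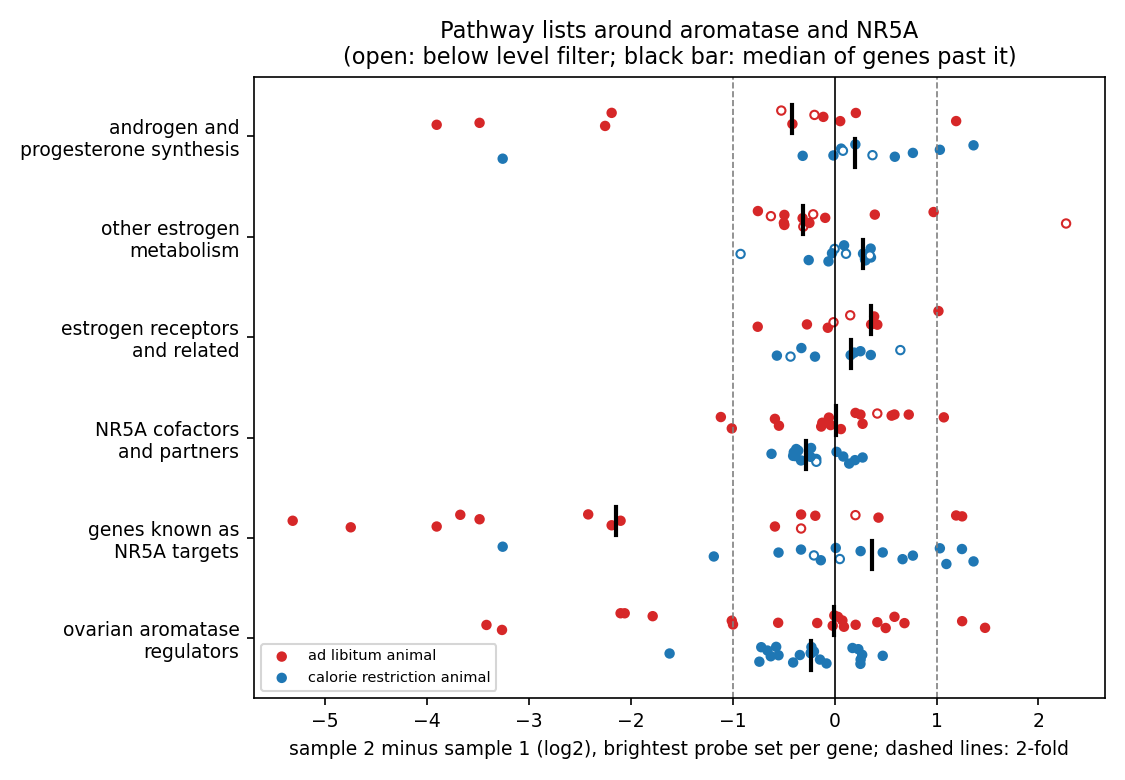
Change within each animal (log2, horizontal axis) for the genes of 6 lists (vertical axis) by each gene's brightest probe set, 1 point per gene and animal, open points below the level filter, black bars at the median of genes past it. The NR5A target list has the lowest ad libitum median, -2.15, and the calorie restriction medians lie between -0.28 and 0.36.

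Markers of other cell types also differed between the samples, and their part in the member results was not tested. Counts here and in the next paragraph are of all genes measured. Past the filter were 6 T and NK cell, 4 adipose and 4 surface epithelium genes. Of all genes past it, 5.39% were 2-fold lower and 2.48% higher in the ad libitum sample 2. In the calorie restriction sample 2, 0.626% were lower and 0.494% higher. Granulosa markers, a list that holds CYP19A1 and FOXL2, had a mean of 9.59 and 8.34 in ad libitum samples 1 and 2 and of 9.23 and 9.35 in the calorie restriction samples, with 4 of 9 2-fold lower (CYP19A1, INHBA, INHA and the gap junction gene GJA1) and 3 higher (FSHR, INHBB and the activin binding protein FST) in the ad libitum animal. Theca and interstitial markers had a mean of 9.58 and 10.8, and of 9.29 and 8.42, with 4 of 6 2-fold higher in the ad libitum sample 2, among them INSL3 (2.66), and 2 of 6 2-fold lower in the calorie restriction sample 2, INSL3 (3.99-fold) and CYP17A1. Endothelial markers had a mean of 7.62 and 6.57, and of 8.18 and 7.86, with 5 of 10 lower in the ad libitum and 1, TEK (-1.08), in the calorie restriction animal. Oocyte markers had a mean of 4.01 and 5.24, and of 3.93 and 3.82, with ZP4 (3.64), ZAR1 (3.70) and FIGLA (1.85) of 10 higher in the ad libitum animal. FIGLA lay below the level filter, so 2 of the 6 oocyte genes past it were higher. Macrophage markers had a mean of 6.74 and 7.25, and of 6.89 and 6.58, with 2 of 8 higher and 1 lower in the ad libitum animal, and CHIT1 changed by 3.58 and -1.94. Adrenal cortex and adipose markers, of tissues that also make steroids, had means of 3.54 to 3.81 and of 4.15 to 4.45. In the adipose list FABP4, a fatty acid binding protein, read 6.22 and 7.53 in the ad libitum samples and 4.70 and 4.64 in the others, 1 of 7 genes 2-fold apart, and in the adrenal list CYP11B2 read 5.55 to 6.03. Fibroblast markers had means between 9.91 and 10.2.

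Smooth muscle and pericyte markers had a mean of 8.78 and 8.81 in ad libitum samples 1 and 2 and of 8.28 and 8.53 in the calorie restriction samples. Of its 9 genes, MYH11 (2.02-fold) was higher and RGS5 (-1.20) and MCAM (-1.11) 2-fold lower in the ad libitum animal, and TAGLN (1.11) higher in the other. T and NK cell markers averaged 5.13 to 5.51 over the 4 samples, with GNLY (-1.48) of 8 lower in the ad libitum animal. Surface epithelium markers averaged 4.45 to 5.16, with 2 of 7 lower in the ad libitum animal, KRT18 (-1.63) and MSLN (-1.25), and KRT18 (1.30) higher in the other. MSLN lay below the level filter. The 3 red blood cell markers measured had means of 7.36, 6.79, 7.92 and 8.30 in the same order, with HBB (-1.22) lower in the ad libitum animal.

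Profiles over the 4 samples most like those of the leading members were found by the smallest Euclidean distance between log2 profiles centred on their own means, among 13574 genes past the level filter. Genes with placeholder symbols (LOC numbers, open reading frames and similar clone names) were passed over, so closer profiles may exist among them. The 5 nearest to CYP19A1 were NOG, a secreted BMP antagonist, at a distance of 0.39, the lysophospholipase ENPP2 at 1.31, the phosphatase DUSP5 at 1.33, CCDC134 at 1.52 and INHA at 1.55. NOG read 8.32, 1.88, 7.57 and 7.78, so that its ad libitum sample 2 was under the 25th percentile of the array. The 5 nearest to NR5A2 were CXADR, an adhesion receptor, at 0.10, the kinase NUAK1 at 0.15, the phosphatase ALPL at 0.25, TSPAN13 at 0.27 and ULK4 at 0.30. These likenesses rest on 4 arrays and mostly on 1 of them, the ad libitum sample 2.

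**Figure D5:**
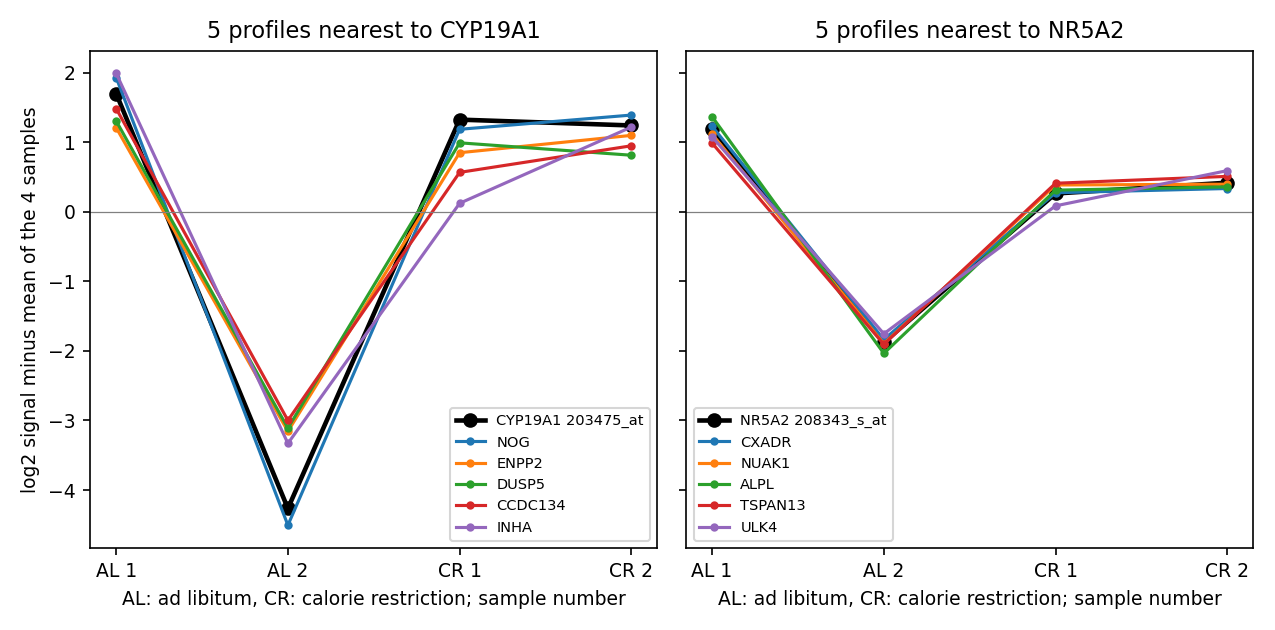
Log2 signal minus the mean of the 4 samples (vertical axis) for CYP19A1 and NR5A2 (black, brightest probe set) and the 5 genes nearest to each (colours), by sample (horizontal axis, AL ad libitum, CR calorie restriction). All profiles have their lowest point in the ad libitum sample 2, where NOG lies beside CYP19A1 and the other 4 neighbours of CYP19A1 lie less far below their means.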

How the data were processed

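The 4 arrays were processed by the authors to log2 signals per probe set with Affymetrix Power Tools and RMA, per the submitters' processing notes. For versions, settings and build, the sources used here say nothing. RMA gives the arrays one distribution of signals, and scanner files were not used here, so detection above background was not analysed. Human probes that mismatch vervet sequence can lower a signal, and having 4 arrays limits the precision.

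Of 54675 probe sets, 62 controls were left out, and 27307 at or above the median mean signal (log2 3.99) entered the fits. Genes were named where the platform annotation gave 1 symbol (41091 probe sets), and a gene in a list was read by its brightest probe set on average. Tests used limma 3.58.1 (lmFit, eBayes with a trend, Benjamini-Hochberg adjustment) in R 4.3.3, checked on simulated data. The simulated noise was independent, with the same spread in all 4 arrays for a probe set. The check thus covers the code, and not how the fits behave where 1 array differs most. An exact permutation test of 2 samples against 2 cannot go below p = 0.333. Same-numbered samples of the animals deviated with a correlation of -0.18 across probe sets.

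Every member probe set is named, with list genes 2-fold apart or set by name, and the 5 nearest profiles. Members and lists were chosen with earlier results of these data known. Alternatives were other level filters, cyclic loess, repeated quantile normalization, probe sets of specific design only, 1.5-fold, no trend, a replicate block and leaving out each sample.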

Additional observations from a re-analysis of the deposited data

Results flagged for a closer look

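For 6 of 10 member probe sets past the level filter, the animals' changes (sample 2 minus sample 1, log2) had opposite directions. Of the 10, 5 had a negative ad libitum and a positive calorie restriction change, against 25.1% of all probe sets. The share of all probe sets with the reverse signs was not counted, so the 6 cannot be set against a full share. The NR5A2 probe sets among them share a gene. With the ad libitum change first, they were 0.99 and -0.50 for HSD17B1 205829_at, -0.90 and 0.24 for HSD17B7, -0.32 and 0.32 for FOXL2, and, for NR5A2, -3.07 and 0.16 (208343_s_at), -1.97 and 0.22 (210174_at) and -1.50 and 0.023 (208337_s_at). In limma's fit of the opposed change, with 1 residual degree of freedom, the adjusted p of these 6 was 0.855 to 0.865, so the difference was not called.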

How the results depend on the processing

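Of the 10 member probe sets past the level filter, no change in either animal that was 2-fold under the values as deposited turned sign or came under 2-fold under cyclic loess or repeated quantile normalization, and none under 2-fold passed it; the 6 below the filter were not run. With probe sets of less specific design left out, 1108 of all and 2 member probe sets were 2-fold apart in the ad libitum animal, in place of 1925 and 4. In the calorie restriction animal 141 of all were, in place of 242. Fewer probe sets are tested there, and their number is not given here, so these counts give no share. At 1.5-fold the counts were 5574 of all 27307 and 8 of 10 member probe sets in the ad libitum animal. In the other animal they were 1352 of all 27307 and 0 of 10. With the filter at the 75th percentile, 157 of all were 2-fold apart in the calorie restriction animal. For the difference between animals, leaving out 1 sample at a time gave 0 to 1143 called probe sets, and 0 to 4 called member probe sets, the highest without the ad libitum sample 1; without its sample 2, 7 were called. With the sample number as a replicate block 0 were called, and with a crossed pairing, chosen after seeing the data, 0 were called. Leaving out a sample from the fits of the common or opposed change leaves no residual degrees of freedom and was not run. Dim probe sets limit 6 of 16 member readings.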
